A study of Mus musculus with 4 samples.

Results

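The nuclear receptor Nr6a1 and the DNA methylation and corepressor genes listed with it were followed on the 4 arrays of a study of whole mouse embryos. Members were all probe sets, the groups of short probes that together read 1 transcript region, that the platform annotation gave to 1 of 9 symbols alone: Nr6a1, Dnmt1, Dnmt3a, Dnmt3b, Dnmt3l, Mbd2, Mbd3, Ncor1 and Trim28. This rule used no measured value, but the symbols were chosen with earlier results of these data known. It found 21 of the 45037 probe sets tested, which stand for 8 of the 18193 genes with a probe set of their own. Ncor1 had no such probe set and was not analysed here. RNA came from embryos staged at embryonic day 9 (E9.0), 2 of them homozygous for a null allele of Nr6a1 (labelled Gcnf-/-, written Nr6a1-/- here) and 2 of them wildtype (labelled wt). The lines were kept on a background that the methods write as C56BL/6, no other allele or agent is named for either group, and yolk sac DNA gave the genotypes. The methods describe RNA taken from each embryo whole, so replicates were treated as separate embryos, and they give a collection window that reaches past the labelled stage. The null allele acts in the whole conceptus, so that the comparison does not separate the tissues in which each gene is expressed. The study cites slower development and failed turning in embryos without Nr6a1. The part of embryo stage in the differences between the groups was not tested.

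Nr6a1, also called germ cell nuclear factor, is an orphan nuclear receptor that acts mainly as a repressor by binding direct repeats of a nuclear receptor half-site. It is best known for shutting off Pou5f1 as embryonic cells leave pluripotency. Methyl-CpG binding proteins and DNA methyltransferases have been described at the Pou5f1 promoter together with the receptor, which is why they are set beside it here. Dnmt3a and Dnmt3b place new methyl groups on CpG sites, Dnmt3l is their inactive cofactor and is best known from germ cells, and Dnmt1 copies the pattern after replication. Mbd2 and Mbd3 are alternative subunits of the NuRD deacetylase complex, of which Mbd2 binds methylated CpG directly, and Trim28 is the corepressor of KRAB zinc finger proteins.

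The transcription starts of Nr6a1 and Dnmt3a are shown first, because the results turn on these 2 genes. RefSeq (GRCm38.p6) places Nr6a1 on the minus strand at chr2:38723369-38926461 and Dnmt3a on the plus strand at chr12:3801559-3914443. Each is listed with more than 1 start, and the 250 bases before the most upstream start in its promoter table and before a downstream start of each gene are printed 5′ to 3′ with every match to the half-site AGGTCA on either strand in capitals. On the minus strand of the motif the capitals read TGACCT.
Nr6a1 upstream start, chr2:38926462-38926711, minus strand: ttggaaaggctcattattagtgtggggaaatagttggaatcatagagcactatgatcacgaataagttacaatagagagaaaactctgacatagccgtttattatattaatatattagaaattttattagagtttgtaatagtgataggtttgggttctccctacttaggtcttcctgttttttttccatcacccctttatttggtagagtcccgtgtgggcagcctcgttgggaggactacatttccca
Nr6a1 downstream start, chr2:38784516-38784765, minus strand: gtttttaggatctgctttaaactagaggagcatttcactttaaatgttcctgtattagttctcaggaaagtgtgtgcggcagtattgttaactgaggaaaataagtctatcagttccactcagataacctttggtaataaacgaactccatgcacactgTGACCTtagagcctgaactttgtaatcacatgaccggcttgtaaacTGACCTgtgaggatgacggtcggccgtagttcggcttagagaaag
Dnmt3a upstream start, chr12:3806730-3806979, plus strand: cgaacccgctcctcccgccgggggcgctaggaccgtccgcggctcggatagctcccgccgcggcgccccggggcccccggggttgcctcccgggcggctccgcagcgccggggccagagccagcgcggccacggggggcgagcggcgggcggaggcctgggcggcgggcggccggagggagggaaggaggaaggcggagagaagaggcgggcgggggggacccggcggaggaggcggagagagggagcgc
Dnmt3a downstream start, chr12:3891494-3891743, plus strand: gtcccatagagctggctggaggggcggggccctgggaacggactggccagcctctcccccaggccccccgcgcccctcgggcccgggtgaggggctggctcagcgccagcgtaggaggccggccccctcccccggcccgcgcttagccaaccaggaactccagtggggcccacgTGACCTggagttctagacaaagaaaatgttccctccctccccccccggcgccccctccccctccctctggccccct
The Nr6a1 downstream window held 2 half-sites, 91 and 45 bases before the start, and the Dnmt3a downstream window held 1, 76 bases before it. Windows of Nr6a1, Dnmt1, Dnmt3a, Dnmt3b, Dnmt3l, Mbd3, Ncor1 and Trim28 were searched, 16 in all, and the half-site was found in these 2 alone. Mbd2 was not searched. Of all 32851 windows of 300 bases (250 before and 50 after the start), 16.3% held the half-site and 1.81% held 2 or more. The longer form TCAAGGTCA, which contains the half-site, was in 0.423% of all windows and in 0 of the 16. The half-site repeated directly with no spacer was also searched, because the receptor binds direct repeats. It was in 2 of all 32851 windows and in none of the windows of these genes. The matches printed in capitals are therefore of the half-site alone. CpG density also differed between the starts. The Dnmt3a upstream window held 46 CpG in its 300 bases, an observed over expected ratio of 0.96, and the downstream window held 18, a ratio of 0.47. The Nr6a1 windows held 10 (0.77) upstream and 8 (0.61) downstream, against a median ratio of 0.38 over all windows. These windows were chosen for printing with the array values known, and a match describes the letters only.

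The array values are log2 signals made with robust multi-array average (RMA), so a difference of 1 is a 2-fold change. Differences are Nr6a1-/- minus wildtype, tested per probe set with limma. A call needed both an adjusted p of at most 0.05 and at least a 2-fold change. Arrays of the same genotype correlated at 0.9975 (mutants) and 0.9973 (wildtype) across probe sets, and arrays of different genotype at 0.9931 to 0.9952. By Xist and the Y-linked genes measured, wildtype replicate 1 was female and the other 3 embryos were male, so values without that array are given beside the results that turn on it. The 18S ribosomal RNA control probe sets read 10.83 and 10.74 in mutants, against 9.45 and 9.99 in wildtype. The 6 measured genes listed for the embryo proper, which include the embryonic globin Hbb-bh1, all lay above the median signal. Of these 3 were higher in mutants and 0 were called. The furthest from 0 was Meox1, at 9.78 and 9.60 in mutants, against 10.47 and 10.15 in wildtype (-0.62; limma adjusted p = 0.105), and its part in the results was not tested. The 2 measured markers of trophoblast and decidua lay at the 10.3rd and 25.7th percentile. None of the 5 yolk sac endoderm markers was higher in mutants, and their mean log2 signals were 12.99 and 12.86 in mutants, against 13.20 and 13.13 in wildtype, a difference whose part in the results was not tested. In whole embryos, fewer cells of a type and less RNA per cell cannot be told apart.

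Among the 21 probe sets, 1 was called, a Dnmt3a probe set that was higher in mutants. Called higher was 0.304% of all probe sets tested, called lower was 0.0777%, and either direction was 0.382%. No member was called lower, and the 6 members under an unadjusted p of 0.05 (9046 of all probe sets were) were all higher in mutants. At the adjusted p alone, 2 members passed, both of Dnmt3a, where 0.975% of all probe sets did. The groups did not overlap and mutants were higher for 10 of the 21, against 23.5% of all probe sets, and mutants were lower without overlap for 2 of the 21, against 27.3% of all. Several probe sets stand for 1 gene, so these counts are not over independent items. The median difference over the members was 0.09, against -0.01 over all probe sets, with 15 members above 0 and 6 below.

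**Figure D1:**
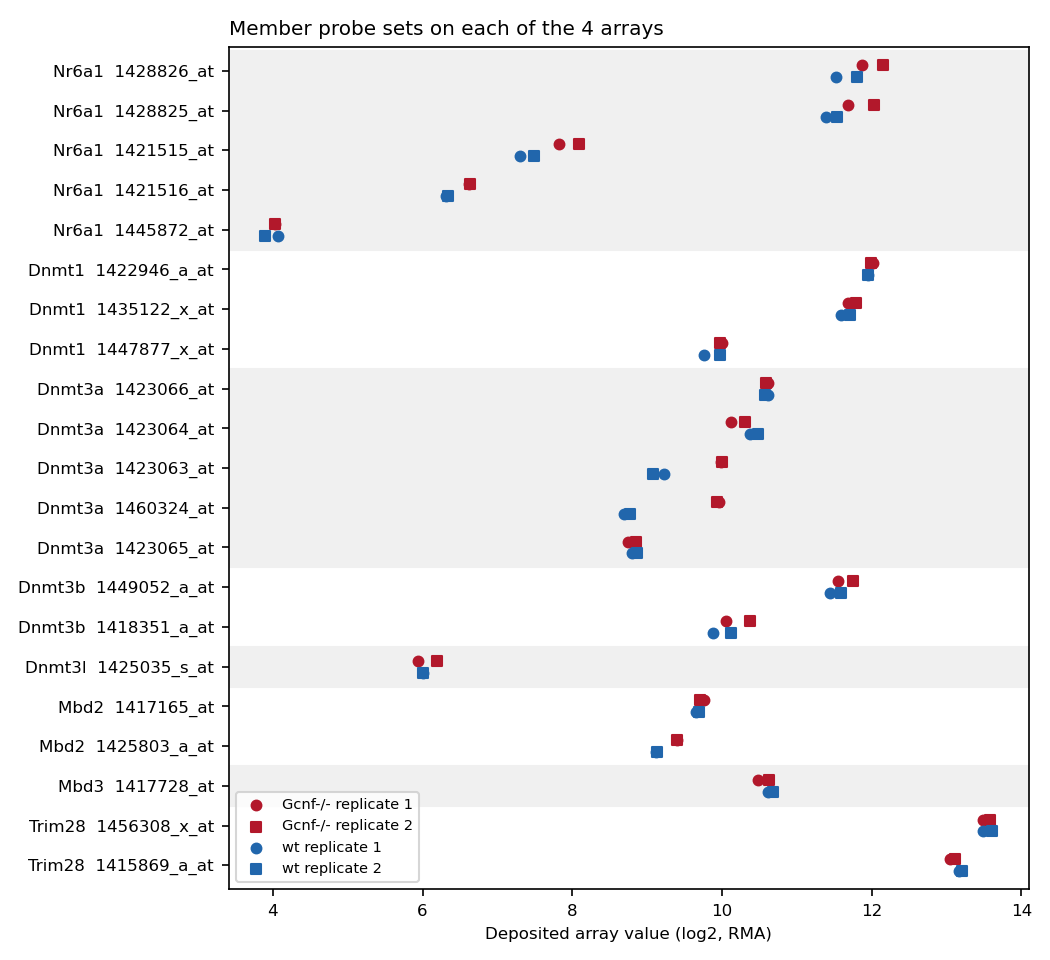
Deposited log2 array values (horizontal axis) of the 21 member probe sets (rows, grouped by gene), with Nr6a1-/- embryos (labelled Gcnf-/-) in red above wildtype embryos (wt) in blue and 1 point per array. The red and blue points stand apart most for Dnmt3a 1460324_at, at 9.96 and 9.93 in mutants against 8.70 and 8.77 in wildtype.

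Nr6a1 signal was not lower in the mutants on any of its 5 probe sets. The brightest, 1428826_at, read 11.87 and 12.14 in Nr6a1-/- embryos, against 11.53 and 11.80 in wildtype. It lay at the 95.5th percentile of mean signal, and both mutants stood just above both wildtype embryos. Its difference was 0.34 ± 0.14 (SE, n = 2 each; 95% interval -0.01 to 0.69; limma adjusted p = 0.260). The next, 1428825_at, read 11.69 and 12.03 in mutants, against 11.39 and 11.54 in wildtype, a difference of 0.39 ± 0.13 (limma adjusted p = 0.200) that was 0.22 without mutant replicate 2 and 0.56 without mutant replicate 1. The groups again did not overlap, and mutant replicate 2 was the highest array on both.

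The remaining 3 Nr6a1 probe sets were dimmer. 1421515_at read 7.82 and 8.09 in mutants, against 7.30 and 7.49 in wildtype, which is the largest difference of the gene at 0.56 ± 0.12 (95% interval 0.25 to 0.86; limma adjusted p = 0.106). 1421516_at read 6.62 and 6.63 in mutants, against 6.31 and 6.34 in wildtype, with a difference of 0.30 ± 0.07 (limma adjusted p = 0.111). Both mutants were above both wildtype embryos on each of these probe sets. 1445872_at, at the 8.89th percentile of signal, read 4.03 and 4.03 in mutants, against 4.06 and 3.89 in wildtype, and its groups overlapped. Thus 4 of 5 probe sets had higher mutant values without overlap and 0 of 5 were called, with 3 of the 4 (1428825_at, 1421515_at and 1421516_at) under an unadjusted p of 0.05. 1421515_at passed the adjusted p, still short of 2-fold, when only probe sets above the median signal were tested (limma adjusted p = 0.0476) and with an intensity trend (0.0499). Without wildtype replicate 1, the female embryo, the difference of 1428826_at was 0.20 (limma adjusted p = 0.643) and that of 1421515_at was 0.47 (0.408). The annotation draws the 5 probe sets from 3 transcript records, but probe positions were not analysed here, including whether any probe covers the deleted sequence, so these values do not test the genotypes.

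Dnmt3a was the member gene with a called probe set, and its 5 probe sets did not move together. 1460324_at read 9.96 and 9.93 in Nr6a1-/- embryos, against 8.70 and 8.77 in wildtype. The 2 embryos of each genotype lay close to each other and the genotypes lay far apart, with a difference of 1.22 ± 0.07 (SE, n = 2 each; 95% interval 1.04 to 1.40), a 2.32-fold higher signal (95% interval 2.05 to 2.63; limma adjusted p = 0.0136). 1423063_at read 9.99 and 10.00 in mutants, against 9.23 and 9.07 in wildtype, a 1.80-fold higher signal (difference 0.84 ± 0.08; limma adjusted p = 0.0335). It passed the adjusted p and fell short of the 2-fold threshold. Its difference was 0.92 without wildtype replicate 1, the female embryo, and 0.77 without wildtype replicate 2.

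The other 3 Dnmt3a probe sets did not show this difference. 1423066_at, the brightest, read 10.61 and 10.59 in mutants, against 10.62 and 10.58 in wildtype, a difference of -0.003 with a 95% interval of -0.18 to 0.17. 1423065_at read 8.74 and 8.85 in mutants, against 8.80 and 8.86 in wildtype, a difference of -0.03 (95% interval -0.23 to 0.16). The groups overlapped on both, and the intervals leave no room for a change of the size seen on 1460324_at. 1423064_at read 10.12 and 10.31 in mutants, against 10.37 and 10.48 in wildtype. Its groups did not overlap, and its difference was -0.21 (95% interval -0.45 to 0.03; limma adjusted p = 0.301), or -0.12 without mutant replicate 1 and -0.30 without mutant replicate 2.

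**Figure D2:**
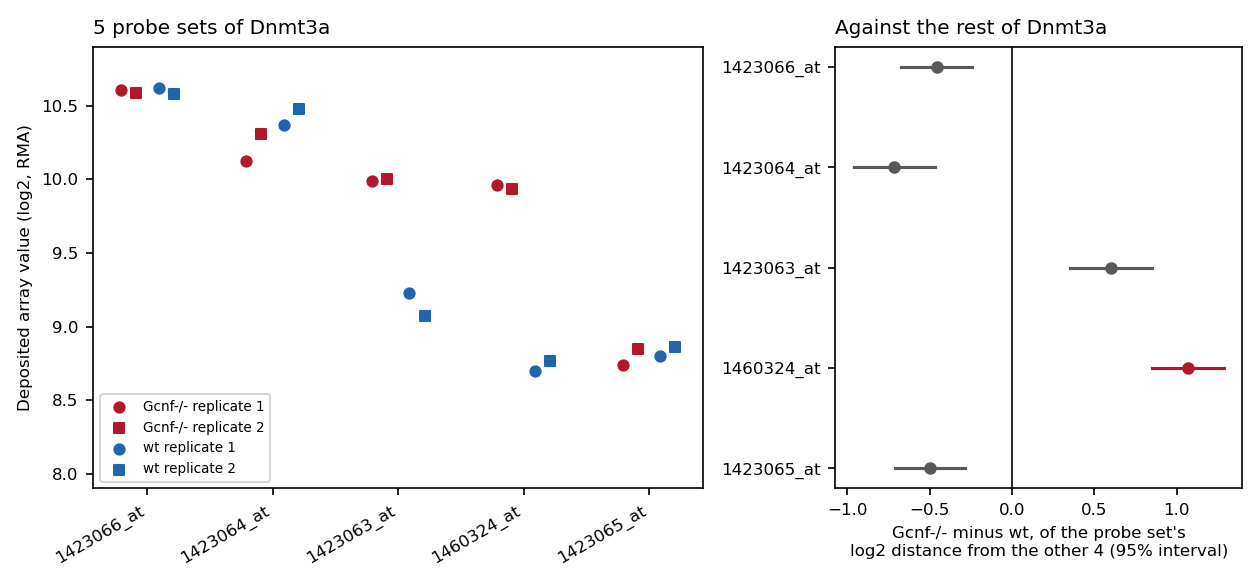
Left, deposited log2 values of the 5 Dnmt3a probe sets on each array, with Nr6a1-/- embryos (red, labelled Gcnf-/-) left of wildtype (blue, wt). Right, the Nr6a1-/- minus wildtype difference of each probe set's distance from the mean of the other 4 (point, with its 95% interval as a line). It was 1.07 for 1460324_at, 0.60 for 1423063_at and below 0 for 1423066_at, 1423064_at and 1423065_at. For those below 0, the mean of the other 4 includes both 1460324_at and 1423063_at, which were higher in mutants.

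The disagreement within Dnmt3a was tested on its own by fitting, for each probe set, its distance from the mean of the other probe sets of the gene. For 1460324_at this distance was 0.10 and -0.003 in mutants, against -1.06 and -0.98 in wildtype. A distance between probe sets also holds the binding strength of their probes, so that only its change between genotypes is read, and both mutants stood far above both wildtype embryos. The difference of 1.07 ± 0.09 (95% interval 0.85 to 1.29) passed at a limma adjusted p of 0.0427 over the 21067 probe sets of the 9010 genes that have more than 1. Only 10 of the 21067 (0.0475%), from 7 genes, passed this test, and 1460324_at was the 10th by p. The other 4 Dnmt3a probe sets did not pass (limma adjusted p = 0.110 to 0.166), nor did 11 probe sets of Nr6a1, Dnmt1, Dnmt3b, Mbd2 and Trim28 tested in the same way. Leaving out 1 array at a time kept the difference between 1.02 and 1.12, and its adjusted p was 0.0454 to 0.126, past the threshold without wildtype replicate 2 alone. This test was added after the values had been seen.

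The Dnmt3a call itself depended on having all 4 arrays. With 1 array left out, the difference of 1460324_at stayed between 1.18 and 1.25 and its limma adjusted p was 0.0875 to 0.167, in fits that called 9 probe sets in all without wildtype replicate 2 and 0 without any other array. Without the female wildtype embryo the difference was 1.18. The annotation assigns all 5 probe sets to 1 transcript record and gives no probe positions, so which Dnmt3a transcripts each one reads was not analysed here. As signs of RNA quality, the 3′ minus 5′ difference of the Gapdh control was -0.09 and -0.09 in mutants, against -0.12 and -0.07 in wildtype, and that of b-actin was 0.35 and 0.39 in mutants, against 0.49 and 0.42 in wildtype. The genotypes overlapped on Gapdh and not on b-actin. The 18S difference ran in the same direction as the Dnmt3a change, and the part of 18S and b-actin in it was not tested.

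**Figure D3:**
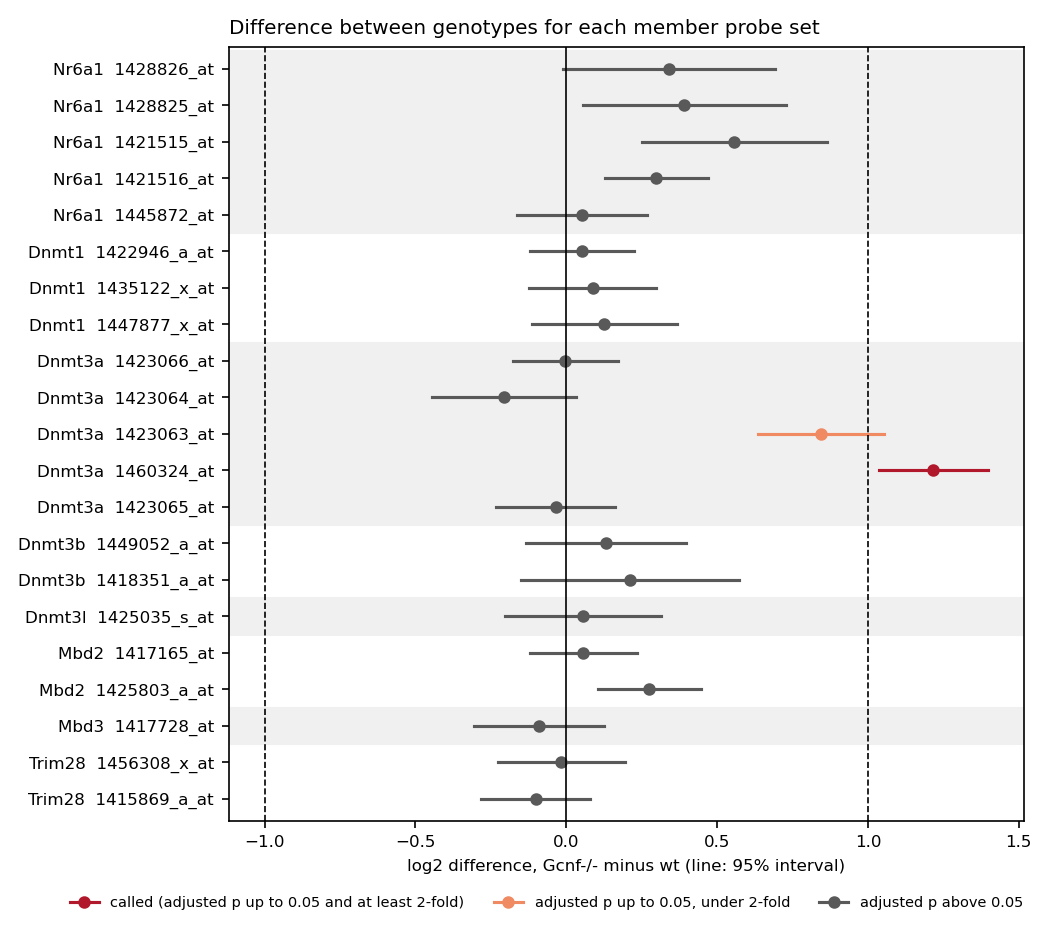
Nr6a1-/- minus wildtype log2 differences of the 21 member probe sets (points) with their 95% intervals (lines), and dashed lines at a 2-fold change. Dnmt3a 1460324_at (1.22, dark red) lies past the 2-fold line with its whole interval, Dnmt3a 1423063_at (0.84, orange) passed the adjusted p alone, and the other 19 lie between -0.21 and 0.56.

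The 11 probe sets of the other 6 members differed little between genotypes. Their differences ran from -0.10 to 0.27, none was called, and every 95% interval lay within a 1.49-fold change in either direction. The lowest limma adjusted p among them was 0.121.

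Of the methyltransferases, Dnmt1 and Dnmt3b were close to wildtype. The 3 Dnmt1 probe sets were higher in mutants by 0.05, 0.09 and 0.13 (limma adjusted p = 0.522 to 0.729). The last 2 values are from 1435122_x_at and 1447877_x_at, which by their suffix can also bind related sequences. 1422946_a_at read 12.02 and 11.98 in mutants, against 11.95 and 11.95 in wildtype. The brighter Dnmt3b probe set, 1449052_a_at, read 11.55 and 11.75 in mutants, against 11.44 and 11.59 in wildtype, and its groups overlapped. The dimmer, 1418351_a_at, read 10.05 and 10.37 in mutants, against 9.87 and 10.12 in wildtype, and gave the widest interval of the 11 at -0.15 to 0.57.

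Dnmt3l gave a low signal in both genotypes. Its 1 probe set, which by its suffix can read more than 1 transcript, stood at the 37.9th percentile of signal, with 5.94 and 6.19 in mutants and 6.01 and 6.01 in wildtype. The groups overlapped, with a difference of 0.05 (95% interval -0.20 to 0.31). The 4 measured germ cell markers beside it averaged 6.63 and 6.78 in mutants, against 6.49 and 6.62 in wildtype. None of the 4 was called, and they ranged from the 14.0th percentile of signal for Dazl, an RNA-binding protein, to the 72.3rd for Prdm1, a germ cell specifier also active in other tissues, with Ddx4 and Dppa3 between. Dppa3 read 6.85 and 6.85 in mutants, against 6.49 and 6.22 in wildtype, without overlap (difference 0.50; limma adjusted p = 0.104), and its part in the Dnmt3l values was not tested.

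Among the methyl-CpG binding and corepressor members, 1 probe set of Mbd2 came nearest to the threshold. Mbd2 1425803_a_at read 9.39 and 9.40 in mutants, against 9.11 and 9.13 in wildtype, a difference of 0.27 ± 0.07 (95% interval 0.11 to 0.44; limma adjusted p = 0.121). Both mutants were above both wildtype embryos, by more than either pair differed within itself. The brighter Mbd2 probe set, 1417165_at, differed by 0.06 (95% interval -0.12 to 0.23). Mbd3 read 10.48 and 10.63 in mutants, against 10.61 and 10.68 in wildtype, a difference of -0.09 (95% interval -0.31 to 0.13), with overlapping groups.

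The Trim28 probe sets stood at the 99.1st and 98.6th percentile of signal, a rank that also depends on the probes. 1456308_x_at read 13.48 and 13.58 in mutants, against 13.49 and 13.61 in wildtype, a difference of -0.02 (95% interval -0.23 to 0.19). 1415869_a_at read 13.05 and 13.12 in mutants, against 13.16 and 13.21 in wildtype, a difference of -0.10 (95% interval -0.28 to 0.08; limma adjusted p = 0.494). The mutants were lower without overlap on the second alone, and by its suffix the first can also bind related sequences.

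**Figure D4:**
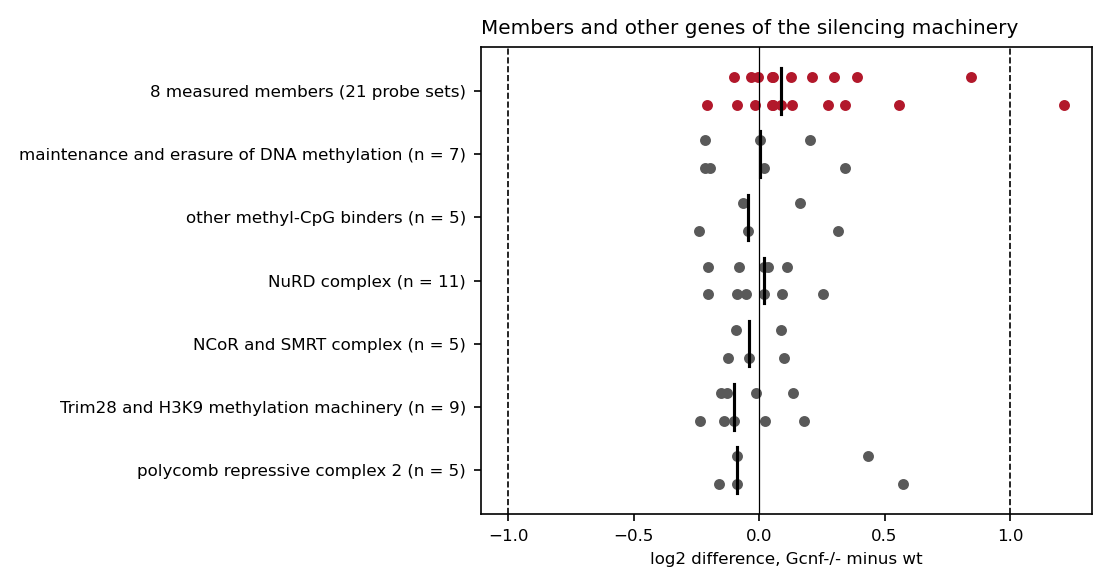
Nr6a1-/- minus wildtype log2 differences (points) of the 21 member probe sets (top row, red) and, in grey, of the genes of 6 lists of partner machinery, 1 probe set per gene, with medians as vertical bars and dashed lines at a 2-fold change. The list genes lie between -0.24 and 0.57, all inside the dashed lines.

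The wider machinery around these members was described with 6 gene lists, each gene by its brightest probe set. Of 46 genes 42 were measured, 19 above 0 and 23 below, with a median of -0.04, against -0.01 over all 18193 genes (8583 above and 9609 below 0). None of the 42 passed the adjusted p and none was called (11 had an unadjusted limma p under 0.05, as had 4336 of all genes), where 254 of all genes passed the adjusted p, 77 were called higher and 22 lower. Over all 121 probe sets of these genes 0 were called and 1 passed the adjusted p, where 0.975% of all probe sets did. It was a probe set of Tet2, which oxidises methylcytosine (difference 0.61; limma adjusted p = 0.0438). The brighter Tet2 probe set differed by 0.34 and did not pass (limma adjusted p = 0.224). The 2 genes of each list with the smallest p are named here with their limma differences.

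For maintenance and erasure of DNA methylation, 4 of 7 measured genes were above 0 (median 0.002), and the smallest p belonged to Usp7, a deubiquitinase that binds Dnmt1 (-0.22; limma adjusted p = 0.191), and Hells, a chromatin remodeller needed for methylation (-0.22; 0.197). Of the other methyl-CpG binders 2 of 5 were above 0 (median -0.05), with the zinc finger proteins Zbtb4 at 0.31 (0.116) and Zbtb33 at -0.24 (0.169). Of the NuRD subunits that work with Mbd2 and Mbd3, 6 of 11 were above 0 (median 0.02), with Mta3 at 0.26 (0.163) and Gatad2a at -0.21 (0.251). The other Mta3 probe sets, both dimmer, gave 0.70 (limma adjusted p = 0.0559) and 0.06 (0.714).

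Of the NCoR and SMRT complex, 2 of 5 measured genes were above 0 (median -0.04), with the scaffold Sin3a at -0.13 (limma adjusted p = 0.373) and Tbl1x at -0.09 (0.525). Of the Trim28 and H3K9 methylation machinery, 3 of 9 were above 0 (median -0.10), with the methyltransferases Suv39h2 at -0.23 (0.177) and Setdb1, which Trim28 recruits, at -0.15 (0.332). Of polycomb repressive complex 2, 2 of 5 were above 0 (median -0.09). There Jarid2, a subunit that helps recruit the complex, read 11.37 and 11.56 in mutants, against 10.78 and 11.01 in wildtype (0.57; limma adjusted p = 0.0968), and the methyltransferase Ezh1 read 8.59 and 8.64 in mutants, against 8.04 and 8.32 in wildtype (0.43; 0.129). Both mutants were above both wildtype embryos for these 2 genes, as for 23.5% of all probe sets, and neither passed. The other Jarid2 probe sets gave 0.65 and 0.35. The other Ezh1 probe sets, all dimmer, gave 0.02, -0.13 and 0.03.

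Genes reported as repressed by Nr6a1 were read on the same arrays. By the brightest probe set of each gene, all 5 measured were above 0, as were 8583 of all 18193 genes. Of the 5, 2 were called higher, as were 77 of all genes. Pou5f1 read 10.66 and 11.31 in mutants, against 5.23 and 5.99 in wildtype, and Nanog read 7.27 and 7.74 in mutants, against 3.87 and 4.33 in wildtype (limma adjusted p = 0.0136 for both). Nanog in wildtype was as low as the dimmest Nr6a1 probe set, and unspecific signal at such levels leaves the size of these 2 differences uncertain. For Tdgf1, Bmp15 and Gdf9 the groups overlapped on these probe sets and the differences were 0.32, 0.13 and 0.03. The other Bmp15 probe sets, at the 8.94th and 2.66th percentile of signal, gave -0.08 and -0.18. On both, mutants were lower without overlap, as for 27.3% of all probe sets, and neither passed the adjusted p. The list was chosen with results of these arrays known and is no independent evidence of its direction.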

How the data were processed

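RNA of 4 whole embryos at E9.0 was measured, 2 Nr6a1-/- and 2 wildtype, on 1 Affymetrix mouse array each, with labelled target amplified from 150 ng of total RNA. The authors deposited log2 values made with RMA, which corrects background, quantile-normalises and summarises probes. Its version is not given in the sources used here. Such normalisation hides any shift that most transcripts share, and unspecific hybridisation compresses the differences of dim probe sets.

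Of 45101 probe sets, 64 Affymetrix controls were left out, leaving 45037. The platform annotation gave 34945 of them (77.6%) 1 symbol alone, and 99.4% of these matched RefSeq GRCm38.p6 by Entrez identifier, with 0 symbols changed. 0 columns were left unmapped to a sample. Genotypes were compared in R 4.3.3 with limma 3.58.1 (lmFit, then eBayes), genotype the only term, with Benjamini-Hochberg adjustment over all 45037 and the study's thresholds. The within-gene fit used the same tools. The smallest two-sided p of an exact permutation of 2 against 2 arrays is 0.333, so calls rest on the spread that limma pools over probe sets (prior SD 0.0849, prior degrees of freedom 3.16). Precision is limited by the array number. Intervals are limma's moderated 95% intervals.

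Named were all member probe sets and, from each list, any called gene or otherwise the 2 with the smallest p. Tet2, Tdgf1, Bmp15, Gdf9, Meox1 and Hbb-bh1 were named outside this rule, after their values were seen. A list gene was read by its brightest single-symbol probe set. The members and lists were chosen with earlier results of these data known. The settings varied were a block for replicate number, each array left out, signal above the median only, median centring, quantile normalisation run again, an intensity trend, robust eBayes, no fold threshold, and the mean over a gene's probe sets. Motifs were counted on both strands of RefSeq promoter windows.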

Additional observations from a re-analysis of the deposited data

How the results depend on the processing

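Of 207 fold changes recomputed under the alternatives, 199 kept their direction, and 16 of the 21 member probe sets never changed sign. The reversals were all of differences no larger than 0.054 in size. Leaving out 1 array moved Nr6a1 1445872_at between -0.033 and 0.138, Dnmt3a 1423066_at between -0.024 and 0.017, Dnmt3a 1423065_at between -0.090 and 0.021, Dnmt3l between -0.069 and 0.177 and Trim28 1456308_x_at between -0.078 and 0.045. Repeated quantile normalisation gave 0.011 for Dnmt3a 1423066_at. Taking the mean over the probe sets of Dnmt3a in place of the brightest gave 0.36 (limma adjusted p = 0.0440), in place of -0.003. Dnmt3a 1460324_at was called when only probe sets above the median signal were kept and under median centring, repeated quantile normalisation, the intensity trend and robust eBayes. Leaving out 1 array gave it 1.18 to 1.25 without a call, so that 0 members were called higher with any 1 array left out, while 5 to 7 members were under an unadjusted p of 0.05 in limma, as were 5241 to 7244 of all 45037 probe sets. Fewer arrays leave fewer degrees of freedom. Without the fold threshold 2 members counted as higher. The replicate numbers were not taken as pairs, the correlation of same-numbered deviations being 0.06. With the replicate block the Dnmt3a value was 1.22 (limma adjusted p = 0.160) and 0 members were called higher, with 9 under an unadjusted p of 0.05, and over all probe sets 0 were called and 8358 were under that p. Among probe sets above the median signal, Mbd2 1425803_a_at passed the adjusted p (0.0440) short of 2-fold. The brightest Nr6a1 probe set ran from 0.20 to 0.48, lowest without wildtype replicate 1 or Nr6a1-/- replicate 2, and was called under none. Low signal limits the reading of Nr6a1 1445872_at, Nr6a1 1421516_at and Dnmt3l, which lay below the median.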

Other observations

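Of the 106 probe sets of the list genes that could be set against the rest of their gene, 0 passed the within-gene test at the adjusted p in limma, and 21 were under an unadjusted p of 0.05, as were 2942 of all 21067 (14.0%). The smallest p belonged to a probe set of Usp7, the deubiquitinase that binds Dnmt1. Its distance from the rest of the gene was -4.34 and -4.41 in Nr6a1-/- embryos, against -4.85 and -4.81 in wildtype, a difference of 0.45 ± 0.08 (SE, n = 2 each; limma adjusted p = 0.166). Mta3, a NuRD subunit, followed with -0.14 and -0.38 in Nr6a1-/- embryos, against -0.78 and -0.81 in wildtype (difference 0.54; adjusted p = 0.168). These genes were chosen after their values were seen.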
